A study of Mus musculus with 4 samples.

Results

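Aminoacyl-tRNA synthetases are the enzymes that load each tRNA with its amino acid. The set examined here holds the cytosolic and the mitochondrial enzymes by gene name, and names that end in 2 are the mitochondrial ones. Of 36 genes listed, all were on the array, with 45 probes. A probe counted as measured if either group had it well above background on each of its arrays. By this rule 43 probes remained, for 20 cytosolic and 15 mitochondrial genes (35 in all), among 17569 genes tested on the array. The cells were 32D-EpoR, a mouse myeloid progenitor line that depends on interleukin-3 and carries an introduced erythropoietin receptor. All cells were first moved out of the WEHI-conditioned medium that sustains them into medium with serum alone. One group then received erythropoietin (Epo), the hormone of red cell formation, at 10 U/ml, and the other received none. Sources used here do not give the duration of Epo, and both groups come from a single line. Each group has 2 single-colour arrays, and the experiment was done 2 times, with a new passage of cells each time.

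Cytosolic synthetases serve the ribosomes that translate nuclear messages, and the mitochondrial ones serve the ribosomes that translate the few messages of the mitochondrial genome. Both sets are encoded in the nucleus, mostly by separate genes, while Kars and Gars each encode both forms. Some of the cytosolic enzymes assemble with scaffold proteins into the multisynthetase complex. Many cytosolic synthetase genes are known targets of ATF4, the transcription factor of the amino acid response, and growth signals that raise protein synthesis often raise the charging machinery.

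Signals are log2 intensities after each array was set to a common 75th percentile, so a change is relative to that percentile. Before this scaling the percentile lay at 347 and 454 intensity units on the arrays with Epo and at 224 and 250 without Epo, and 42.7% and 47.9% of probes were well above background with Epo, against 41.5% and 41.3% without Epo. Across all genes the median change was -0.062 with scaling and 0.68 when no scaling was applied, so unscaled changes must be read against 0.68. Of 10 myeloid progenitor markers on the array, 8 were well above background on all 4 arrays, Mpo, Elane and Csf2rb among them, and Kit was below it on all. Epor, the receptor gene, is counted among those 8 although the line carries an introduced receptor. Its log2 signals were 9.78 and 10.04 with Epo, against 11.35 and 11.66 without Epo. Whether they come from the introduced copy was not tested. None of 6 stromal markers was well above background on all arrays, whereas the lymphoid markers Cd3e and Cd4 and 3 of 4 macrophage markers (Cd14, Csf1r and Emr1) were. The erythroid markers Gata1, Klf1 and Hba-a1 were also above it on all arrays, and Alas2 was below it on all. Summed over the markers just named that were above background on all arrays, the erythroid log2 signal was 12.96 and 12.99 with Epo, against 13.47 and 13.67 without Epo. That of the lymphoid markers was 9.37 and 9.48 with Epo, against 10.45 and 10.22 without Epo. That of the macrophage markers was 12.57 and 12.68 with Epo, against 12.15 and 12.11 without Epo. The erythroid and lymphoid sums were thus lower, and the macrophage sum higher, on both arrays with Epo. Their part in the changes below was not tested. In a bulk measurement fewer cells of a type and less RNA per cell cannot be told apart.

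With Epo, 7 synthetase genes rose and 2 fell, while 26 did not pass the threshold. The rises were Rars, Tars, Farsb and Iars among the 20 cytosolic genes and Mars2, Yars2 and Rars2 among the 15 mitochondrial genes. Both falls, Aars2 and Ears2, were mitochondrial. A gene passed at an adjusted p under 0.05 in limma, with Benjamini-Hochberg adjustment over all 17569 genes. Among all genes 27.3% passed, with 13.1% higher and 14.2% lower, so the counts of 4 of 20 and 3 of 15 rises do not by themselves set either group apart from the transcriptome. No cytosolic gene passed as lower in limma, and none did at an unadjusted p under 0.05 (7 were higher at that level). Of all 17569 genes, 3380 were higher and 4127 lower at that unadjusted level. The median change was 0.24 for the cytosolic genes and 0.010 for the mitochondrial genes, against -0.062 for all genes tested. Without scaling 17 cytosolic and 8 mitochondrial genes passed as higher and none as lower, against 46.9% and 2.08% of all genes. With the percentile taken over detected probes all genes split into 1878 higher and 3651 lower, in place of 2302 and 2502. That choice moves every gene by the same amount, and the mitochondrial median was then -0.12 beside -0.19 for all genes. Under quantile normalization it was -0.075 beside -0.044 for all genes, so it lay above the median of all genes in the first case and below it in the second.

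**Figure D1:**
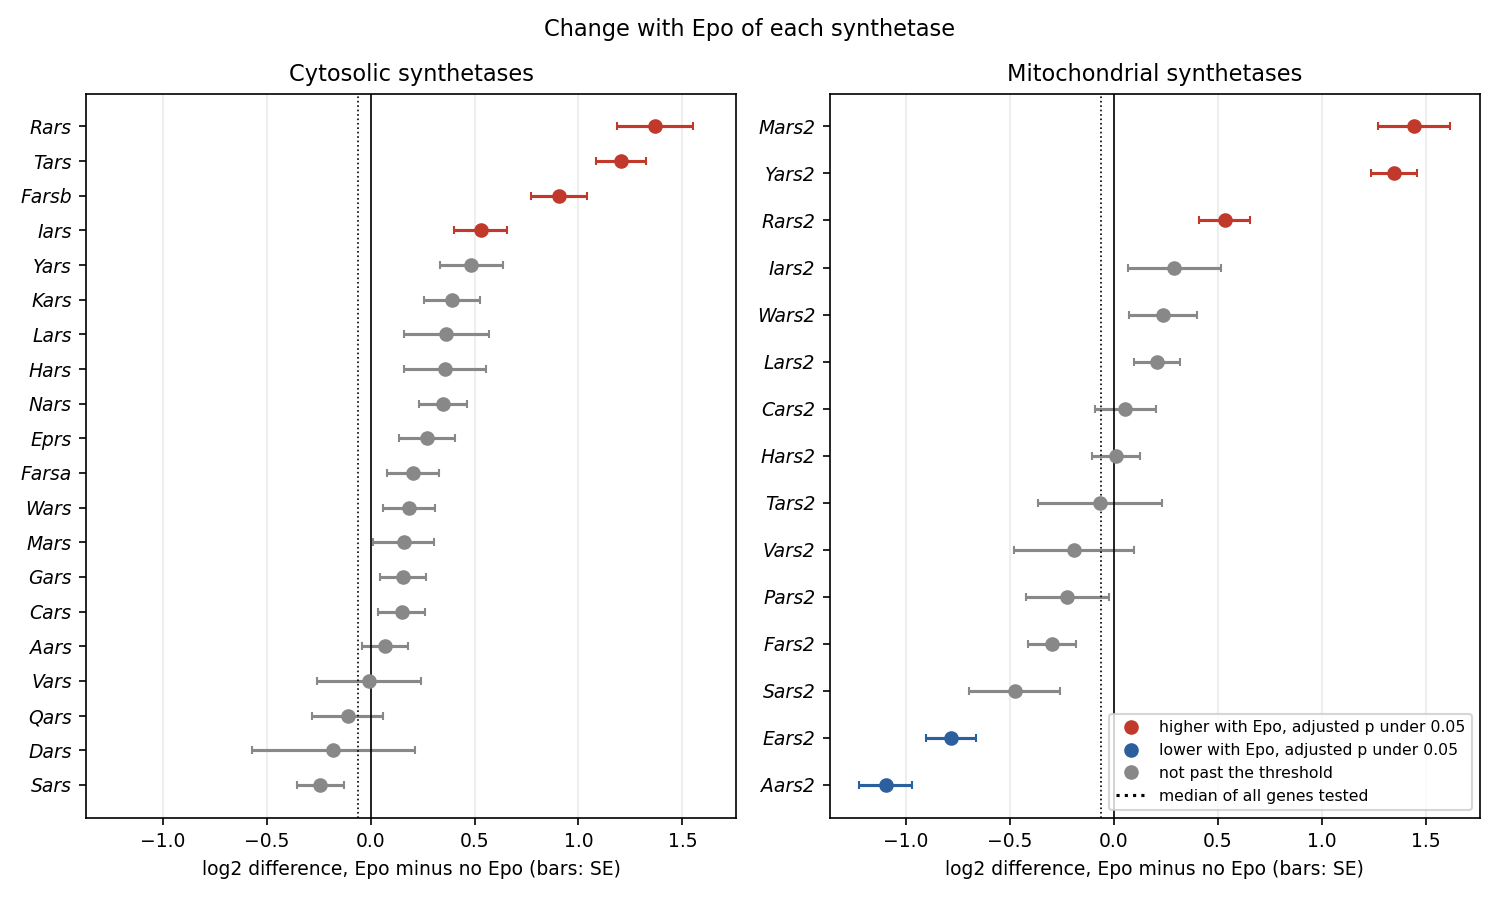
Change with Epo of each synthetase gene as the log2 difference, Epo minus no Epo (points), with its SE (bars), cytosolic genes on the left and mitochondrial genes on the right. The dotted line is the median of all genes tested, -0.062. The cytosolic genes run from -0.24 (Sars) to 1.37 (Rars), and the mitochondrial genes from -1.10 (Aars2) to 1.44 (Mars2).

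Among the cytosolic enzymes the arginine enzyme Rars, a member of the multisynthetase complex, rose most. Its log2 signal was 9.48 and 9.42 with Epo, against 8.30 and 7.87 without Epo. Rars thus rose by 1.37 ± 0.18 (SE, log2), or 2.58-fold (limma adjusted p 0.012). Both arrays with Epo lay above both without. Tars, the threonine enzyme, had signals of 13.54 and 13.57 with Epo and 12.42 and 12.28 without Epo, a rise of 1.21 ± 0.12 (SE), or 2.31-fold (limma adjusted p 0.0070). Here the arrays of 1 group differed by far less than the groups did.

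Phenylalanine is charged in the cytosol by an enzyme of paired alpha and beta chains, and the genes of the chains gave different values. Farsb, the beta chain, had signals of 11.96 and 12.18 with Epo, against 11.14 and 11.19 without Epo. It rose by 0.91 ± 0.13 (SE), or 1.87-fold (limma adjusted p 0.014, and 0.061 without Epo replicate 2). Farsa, the alpha chain, had signals of 13.57 and 13.42 with Epo and 13.24 and 13.34 without Epo. Its change of 0.20 ± 0.12 (SE) did not pass (limma adjusted p 0.27), and its other probe gave 0.35. The groups did not overlap for either chain, and the difference between the chains was not tested.

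Iars, the isoleucine enzyme and another member of the complex, was the last cytosolic gene past the threshold. Its signal was 13.15 on each array with Epo, against 12.72 and 12.52 without Epo. The rise of 0.53 ± 0.13 (SE), or 1.44-fold, had a limma adjusted p of 0.044. The call rested on every array: with 1 array left out the adjusted p ran from 0.057 to 0.18, and it was 0.068 and 0.076 with the percentile over detected probes and with quantile normalization.

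Of the mitochondrial enzymes, the methionine enzyme Mars2 showed the largest rise. It read 8.03 and 8.36 with Epo and 6.64 and 6.87 without Epo, a rise of 1.44 ± 0.17 (SE), or 2.72-fold (limma adjusted p 0.0097). Yars2, the tyrosine enzyme, read 11.31 and 11.30 with Epo, against 9.98 and 9.93 without Epo. Its rise was 1.35 ± 0.11 (SE), or 2.55-fold (limma adjusted p 0.0055), the smallest adjusted p among the 35 synthetase genes. For both, the gap between the groups was several times the spread within them. The size for Mars2, a dim gene, depended on the background step. With the normexp background it rose by 0.96, while Yars2 rose by at least 1.22 in every alternative, so Mars2 was then not the largest.

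Rars2, the arginine enzyme, read 12.21 and 12.17 with Epo and 11.73 and 11.58 without Epo. It rose by 0.53 ± 0.12 (SE), or 1.45-fold (limma adjusted p 0.038). Like that of Iars, its call was lost when any 1 array was left out (adjusted p 0.063 to 0.18), with the percentile over detected probes (0.059) and with quantile normalization (0.067).

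Aars2 and Ears2, the mitochondrial alanine and glutamate enzymes, fell relative to other genes. The Aars2 signal was 8.65 and 8.49 with Epo, against 9.62 and 9.72 without Epo. The change was -1.10 ± 0.13 (SE), and the signal with Epo was 0.467 of that without (limma adjusted p 0.0090). Ears2 gave 8.61 and 8.58 with Epo and 9.45 and 9.30 without Epo, a change of -0.78 ± 0.12 (SE), or 0.581 of the level without Epo (limma adjusted p 0.015). Neither fall passed without scaling, where Aars2 lay at -0.35 and Ears2 at -0.038 beside the median of 0.68 for all genes. The Ears2 call was also lost without Epo replicate 1 or 2 (adjusted p 0.067 and 0.070).

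The probes of 4 genes that rose are shown so that the measured stretch of each transcript is visible; that of Tars, which rose more than Farsb, is not shown. They are 60 bases long, read 5′ to 3′ along the transcript, and come from the array files. In the build mm9, the Rars probe lies on the minus strand of chromosome 11 between 35633429 and 35634605 and crosses an intron, as does the Farsb probe on the minus strand of chromosome 1 between 78440318 and 78451340. The Yars2 probe lies on the plus strand of chromosome 16 from 16307393 to 16307452, and the Mars2 probe on the plus strand of chromosome 1 from 55295642 to 55295701. For Rars, Yars2 and Mars2, 1 forward reading frame is open across the whole probe, and for Farsb 2 are. Where each lies relative to the coding region was not analysed here.
Rars: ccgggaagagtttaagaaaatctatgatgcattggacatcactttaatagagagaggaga
Farsb: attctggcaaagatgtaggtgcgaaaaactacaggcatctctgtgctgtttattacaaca
Yars2: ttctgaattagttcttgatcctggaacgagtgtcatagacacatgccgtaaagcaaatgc
Mars2: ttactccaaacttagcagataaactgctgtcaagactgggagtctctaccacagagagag

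**Figure D2:**
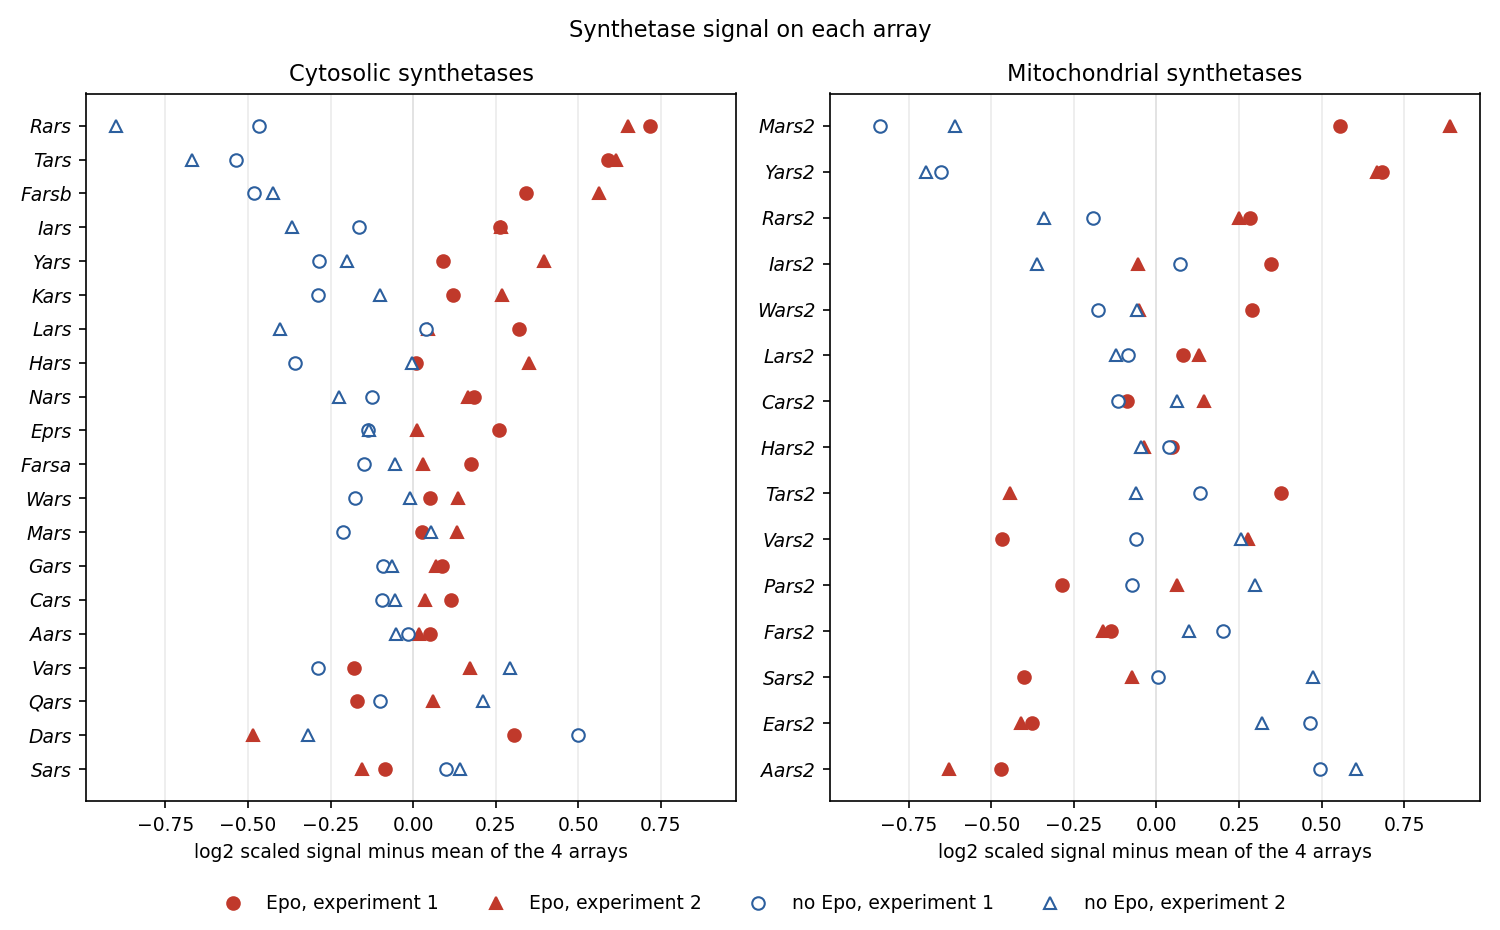
Signal of every synthetase gene on each array, as log2 scaled signal minus the mean of that gene's 4 arrays. Filled red symbols are Epo and open blue symbols no Epo, circles are experiment 1 and triangles experiment 2. Both Epo arrays lie right of both arrays without Epo for 15 of 20 cytosolic and 5 of 15 mitochondrial genes. The same held for 30.4% of all genes tested.

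The other 16 cytosolic genes did not pass, and 12 of them had changes above 0. In all, 16 of 20 cytosolic genes lay above 0, compared with 7949 of 17569 genes tested. For 15 of the 20 both arrays with Epo lay above both without Epo, and for 1, the serine enzyme Sars, both lay below. Among all genes tested this separation was seen in 30.4% upward and 38.4% downward. The nearest to the threshold were the tyrosine enzyme Yars (0.49 ± 0.15, SE), the asparagine enzyme Nars (0.35 ± 0.11) and the lysine enzyme Kars (0.39 ± 0.14), with limma adjusted p of 0.078, 0.087 and 0.098. Hars and Lars, for histidine and leucine, changed by 0.36 ± 0.20 and 0.36 ± 0.20 (SE), and Eprs, which joins the glutamate and proline enzymes in 1 chain, by 0.27 ± 0.14. None of these passed.

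Changes nearer to 0 were measured for Wars (0.19, tryptophan), Mars (0.16, methionine), Gars (0.16, glycine), Cars (0.15, cysteine) and Aars (0.070, alanine). The other kept Wars probe, a dimmer one, gave a larger change of 0.48 ± 0.19 (SE) and did not pass. The Gars interval of -0.13 to 0.45 and the Aars interval of -0.22 to 0.36 (95%) bound what these arrays can exclude. Vars (-0.0061, valine), Qars (-0.11, glutamine), Dars (-0.18, aspartate) and Sars (-0.24) lay below 0 and did not pass. Without scaling these last lay at 0.74, 0.64, 0.57 and 0.50, of which only Vars was past the threshold. The Dars signals were 9.54 and 8.75 with Epo, against 9.73 and 8.91 without Epo. In both groups the first experiment was higher, so the spread between experiments exceeded the change.

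When the experiment was entered as a block, 8 cytosolic genes rose in place of 4. The genes gained were Hars, Kars, Nars and Yars (limma adjusted p 0.038, 0.034, 0.044 and 0.039), all 4 original calls were kept, and none fell. With the block 19.9% of all genes were higher and 23.2% lower. Every one of these 8 genes was higher with Epo in each experiment, which a call in the block fit nearly requires.

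**Figure D3:**
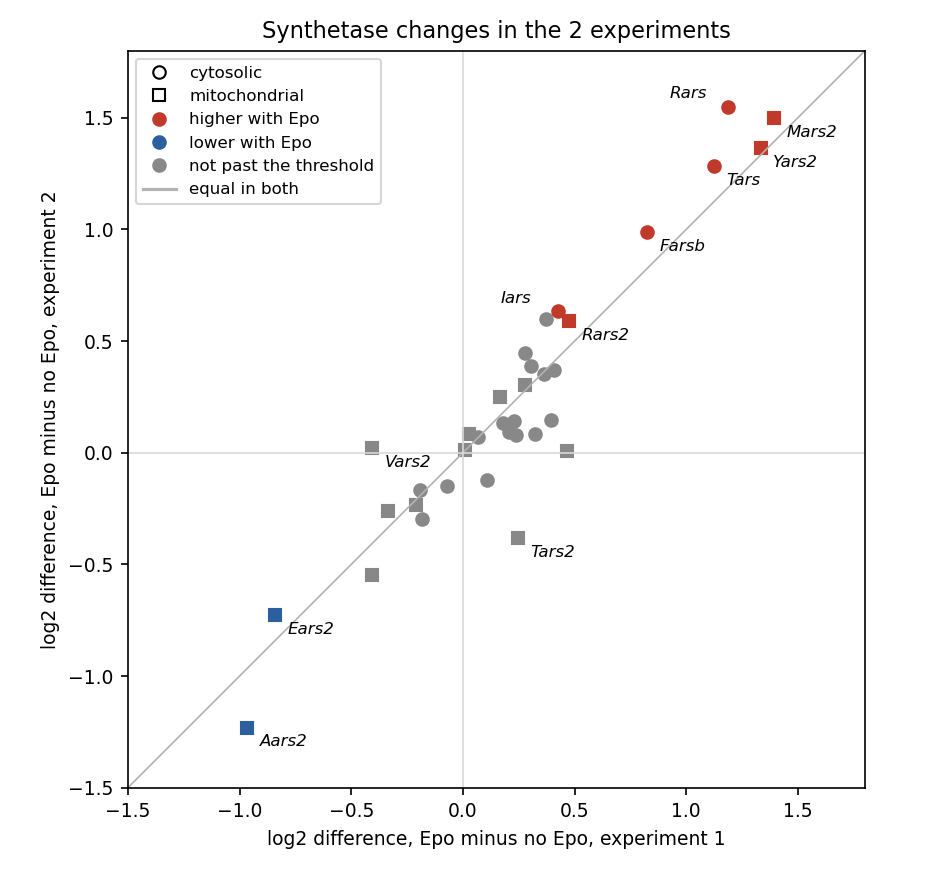
Log2 difference, Epo minus no Epo, of each synthetase gene in experiment 1 (horizontal) and experiment 2 (vertical), circles for cytosolic and squares for mitochondrial genes. Each of the 9 genes past the threshold lies on the same side of 0 in both experiments, which a call with 2 arrays a group nearly requires. Tars2, which was not called, lies at 0.25 in experiment 1 and -0.38 in experiment 2.

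The 10 mitochondrial genes that did not pass were spread around 0. Iars2 (isoleucine), Wars2 (tryptophan) and Lars2 (leucine) changed by 0.29 ± 0.22, 0.24 ± 0.16 and 0.21 ± 0.11 (SE), and Cars2 (cysteine) and Hars2 (histidine) by 0.055 and 0.010. Tars2 (threonine), Vars2 (valine), Pars2 (proline), Fars2 (phenylalanine) and Sars2 (serine) had changes of -0.068, -0.19, -0.22, -0.30 and -0.48. The Sars2 signals were 9.004 and 9.33 with Epo and 9.41 and 9.88 without Epo. Its groups did not overlap and its limma adjusted p was 0.17, or 0.031 with the experiment as a block. Of the 15 mitochondrial genes 5 were separated upward and 4 downward, and 6 overlapped. Among all genes tested 30.4% were separated upward and 38.4% downward, so these counts do not set the mitochondrial genes apart.

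Several genes had more than 1 kept probe. In 6 of 8 such genes the probes gave changes of the same sign. The exceptions were Tars2, at -0.068 and 0.22, and Wars2, at 0.24 and -0.059, and no probe of either passed. The brighter Tars2 probe read 14.88 and 14.06 with Epo, against 14.64 and 14.44 without Epo, so its arrays with Epo differed from each other more than the groups did. Each of the 9 called genes has 1 kept probe. A second Aars probe was not kept, being well above background on no array. That probe read 2.58 and 1.45 with Epo and 2.77 and 2.68 without Epo. Nars2, the asparagine enzyme, was the only listed gene without a kept probe. Its probe read 4.09 and 4.01 with Epo, where 1 array was well above background, and 2.67 and 2.60 without Epo, where neither was. Just inside the filter, the dimmer Pars2 probe was well above background on 3 arrays, with 4.51 and 5.08 with Epo and 4.25 and 5.45 without Epo.

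Enzymes for the same amino acid in the 2 compartments often differed in the size or the call of their change. Matched by gene name, both compartments were tested for 13 amino acids, which gives 14 pairs with Farsa and Farsb counted apart. Eprs, the cytosolic enzyme for both glutamate and proline, was left out of the pairs. It changed by 0.27, beside Ears2, which fell at -0.78, and Pars2 at -0.22. The arginine pair was the 1 pair in which both genes rose, with Rars at 1.37 and Rars2 at 0.53. In 3 pairs the cytosolic gene passed alone, with Tars at 1.21 and Tars2 at -0.068, Farsb at 0.91 and Fars2 at -0.30, and Iars at 0.53 and Iars2 at 0.29. In 2 pairs the mitochondrial gene rose alone, with Mars2 at 1.44 and Mars at 0.16, and Yars2 at 1.35 and Yars at 0.49. For alanine Aars2 fell, at -1.10, while Aars lay at 0.070. The cytosolic change was the greater in 11 of 14 pairs, and the differences within pairs were not tested.

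**Figure D4:**
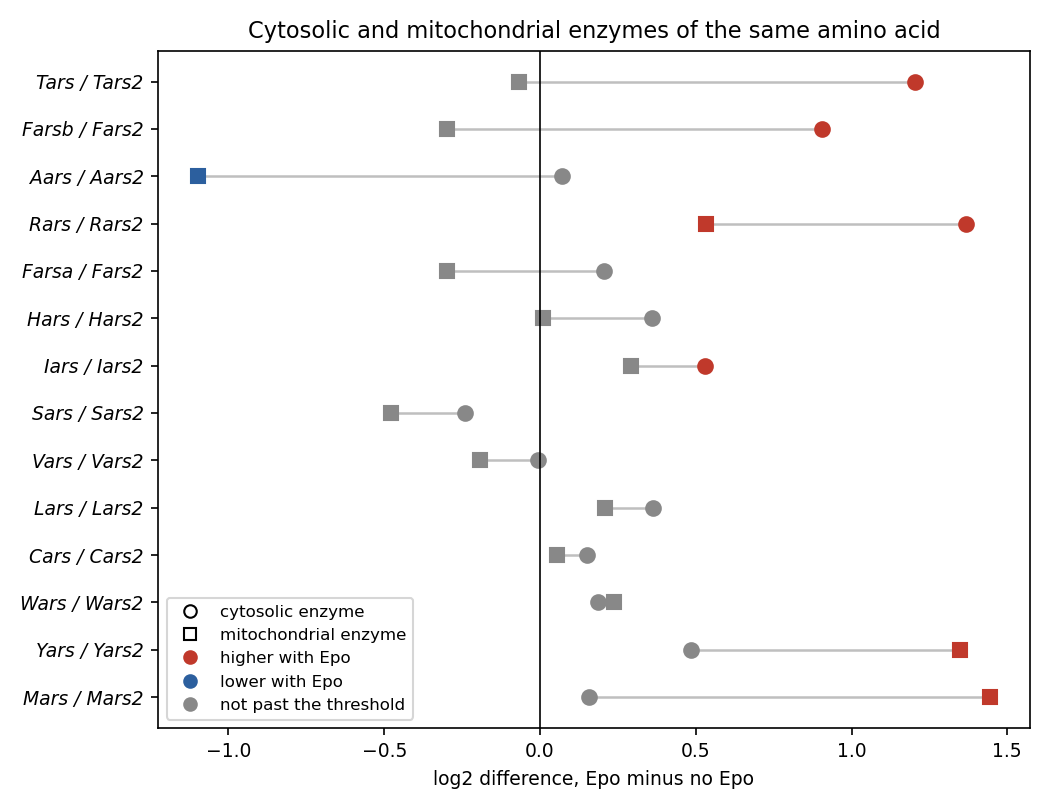
Log2 difference, Epo minus no Epo, of the cytosolic (circles) and mitochondrial (squares) enzyme for the same amino acid, joined by a line and coloured by whether the gene passed the threshold. Pairs were matched by gene name, so Eprs, Ears2 and Pars2 are not shown. The pairs run from Tars and Tars2, with the cytosolic gene 1.27 higher, to Mars and Mars2, with the cytosolic gene 1.29 lower (-1.29).

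Some synthetase genes are close to each other on the chromosome. By gene order in a RefSeq table of GRCm38.p6, Hars and Hars2 are next to each other on chromosome 18, and their changes were 0.36 and 0.010. Eprs and Iars2 have 1 protein-coding gene between them on chromosome 1 and changed by 0.27 and 0.29. None of the 4 passed.

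Groups by structure or partner gave small counts, to be read against the 13.1% of all genes that were higher and the 14.2% that were lower. Synthetases fall into 2 unrelated folds, class I and class II, each with its own active site, and Eprs, which has both, was left out of this split. Of 18 class I genes 5 rose and 1 fell (median 0.22), and of 16 class II genes tested 2 rose and 1 fell (median 0.040). Of the 8 enzymes of the multisynthetase complex 2 rose, Rars and Iars, with a median of 0.32. Of the 12 cytosolic genes outside it 2 rose, Tars and Farsb, with a median of 0.19. Of 13 cytosolic synthetases listed as known ATF4 targets 2 rose, Tars and Iars, with a median of 0.19, and of the other 7 also 2 rose, Rars and Farsb, with a median of 0.36. None fell in these last 4 groups.

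Promoter sequences for 26 of the 36 genes were taken from RefSeq windows of GRCm38.p6 that run from 250 bases before to 50 after the start of transcription. The genes without a window were Cars, Hars, Lars, Mars, Nars, Rars, Vars, Wars, Hars2 and Pars2. On both strands 3 motifs were searched: CACGTG, the E-box bound by MYC, TGATGNAA, the core of the ATF4 response element, and an NRF1 site. NRF1 is a regulator of nuclear genes for mitochondria, and the letters searched for its site are not a palindrome. The E-box was present in 5 of the 26 genes (Aars, Ears2, Farsb, Iars and Tars), against 8.09% of all 27025 genes with a window. The ATF4 core was present in 5 of the 26 (Aars, Gars, Iars, Tars and Yars), all among the 12 cytosolic genes, against 4.51% of all genes. The NRF1 site was present in 5 of the 26 (Farsb, Iars2, Kars, Mars2 and Tars), against 5.19% of all genes. Of the 6 genes that rose and have a window, Tars, Iars and Farsb hold an E-box, as does Ears2, which fell, and 1 of 17 genes tested and not called. Of the same 6 genes, 3 hold the NRF1 site (Farsb, Mars2 and Tars) and 2 the ATF4 core (Iars and Tars). Among the 17 not called, 2 hold the NRF1 site and 3 the ATF4 core, and the fallen Aars2 and Ears2 hold neither. These splits were not tested. A match is a run of letters in these windows and does not show that a factor binds there.

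The stretches below show the matches, in capitals, within 150 bases before and 30 after the start site of genes that rose (Tars, Iars, Farsb and Mars2), fell (Ears2) or lay near 0 (Aars). Tars and Iars each hold an E-box and an ATF4 core, on which the ATF4 core reads TTGCATCA on the strand shown. Aars holds an E-box and 2 ATF4 cores as well, 1 of them the same 8 letters, and changed by 0.070. They lie at chr15:11399629-11399808 (minus strand), chr13:49681980-49682159 (plus), chr8:111033692-111033871 (plus), chr1:78488868-78489047 (minus), chr1:55237027-55237206 (plus) and chr7:122067057-122067236 (minus) in GRCm38.p6. A site that runs past the end of a stretch is left in lower case.
Tars: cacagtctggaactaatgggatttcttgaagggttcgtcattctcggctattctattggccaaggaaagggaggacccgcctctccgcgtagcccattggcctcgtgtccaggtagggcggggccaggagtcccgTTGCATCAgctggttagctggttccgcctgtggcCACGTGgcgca
Iars: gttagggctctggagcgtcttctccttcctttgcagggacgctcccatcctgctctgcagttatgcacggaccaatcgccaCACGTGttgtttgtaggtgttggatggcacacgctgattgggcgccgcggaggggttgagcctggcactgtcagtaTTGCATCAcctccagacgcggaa
Aars: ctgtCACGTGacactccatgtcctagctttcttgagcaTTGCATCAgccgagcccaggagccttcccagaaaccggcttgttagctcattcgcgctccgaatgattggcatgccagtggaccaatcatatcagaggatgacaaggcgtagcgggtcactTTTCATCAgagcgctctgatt
Farsb: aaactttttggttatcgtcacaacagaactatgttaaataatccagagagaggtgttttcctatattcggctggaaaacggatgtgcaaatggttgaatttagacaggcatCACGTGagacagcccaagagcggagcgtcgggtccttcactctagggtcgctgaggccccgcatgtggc
Mars2: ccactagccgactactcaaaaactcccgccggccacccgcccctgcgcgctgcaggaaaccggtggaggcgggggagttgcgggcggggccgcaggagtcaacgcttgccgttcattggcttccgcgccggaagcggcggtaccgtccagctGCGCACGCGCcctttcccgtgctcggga
Ears2: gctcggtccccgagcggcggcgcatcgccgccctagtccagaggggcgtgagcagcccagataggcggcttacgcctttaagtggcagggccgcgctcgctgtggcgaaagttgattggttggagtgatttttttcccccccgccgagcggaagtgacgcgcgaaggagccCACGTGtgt

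Genes that work with the synthetases changed in part. The scaffold of the multisynthetase complex consists of Aimp1, Aimp2 and Eef1e1, and 2 of these 3 rose. Among all genes 13.1% rose, and 3 genes are too few for a share. Eef1e1 read 13.21 and 12.84 with Epo, against 10.46 and 9.86 without Epo, a rise of 2.86 ± 0.26 (SE), or 7.28-fold (limma adjusted p 0.0063). Aimp2 read 14.96 and 15.01 with Epo and 13.70 and 13.56 without Epo, a rise of 1.36 ± 0.12 (SE, limma adjusted p 0.0062). Aimp1 changed by 0.19 and did not pass. The rise of Eef1e1 exceeded the change of each of the 8 enzymes of the complex, whose largest was Rars at 1.37, and the difference was not tested.

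Among 12 tested accessories of tRNA charging 7 rose and none fell, by adjusted or unadjusted p in limma, with a median of 0.62. Among all genes 13.1% rose and 14.2% fell, and at an unadjusted p under 0.05 3380 of 17569 were higher and 4127 lower. Gatc, a subunit of the mitochondrial amidotransferase that makes glutaminyl-tRNA from the product of Ears2, rose by 1.45 ± 0.29 (SE, limma adjusted p 0.027, and 0.053 without Epo replicate 2). Trnt1, which adds the CCA end that synthetases charge, rose by 1.19 ± 0.11 (SE, limma adjusted p 0.0065). The other 5 rises lay between 0.59 and 1.18. Without Epo replicate 1 or without Epo replicate 2 only 3 accessories passed.

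Elongation factors carry charged tRNA to the ribosome and move it. The list of 12 also holds the kinase Eef2k, and counts of elongation factors here and below include it. Of the 12 genes 1 rose and 1, this kinase, fell, no more than the shares of all genes (13.1% and 14.2%). Gfm1, a mitochondrial factor, rose by 0.52 ± 0.12 (SE, limma adjusted p 0.043), and that call was lost when any 1 array was left out (0.064 to 0.18). Eef2k, the kinase that inhibits elongation factor Eef2, fell by 0.86 ± 0.12 on the log2 scale (SE, limma adjusted p 0.012), although it lay at -0.12 and did not pass without scaling, and its adjusted p was 0.060 without Epo replicate 2. The count of rises was 2 with the experiment as a block and that of falls likewise 2.

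Of 20 tested ATF4 targets other than synthetases, Atf4 itself included, 6 rose and 2 fell, with a median of 0.095, against 13.1% and 14.2% of all genes. Atf4 read 16.27 and 16.01 with Epo, against 15.26 and 15.14 without Epo, a rise of 0.94 ± 0.14 (SE, limma adjusted p 0.015, and 0.063 without Epo replicate 1). The arginine and lysine carrier Slc7a1 rose by 1.74 ± 0.12 (SE). The stress genes Ddit4 and Ddit3 changed by -1.37 ± 0.14 and -0.51 ± 0.12 (SE), and without scaling Ddit4 lay at -0.62 and Ddit3 at 0.23, neither past the threshold. The Ddit3 call was also lost with the normexp background (limma adjusted p 0.076) and when any 1 array was left out (0.073 to 0.22). With 1 array left out, between 1 and 3 of the 20 genes rose. Myc, whose product raises many genes of protein synthesis, read 13.87 and 13.25 with Epo, against 10.58 and 9.78 without Epo, a rise of 3.37 ± 0.35 (SE, limma adjusted p 0.0076).

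**Figure D5:**
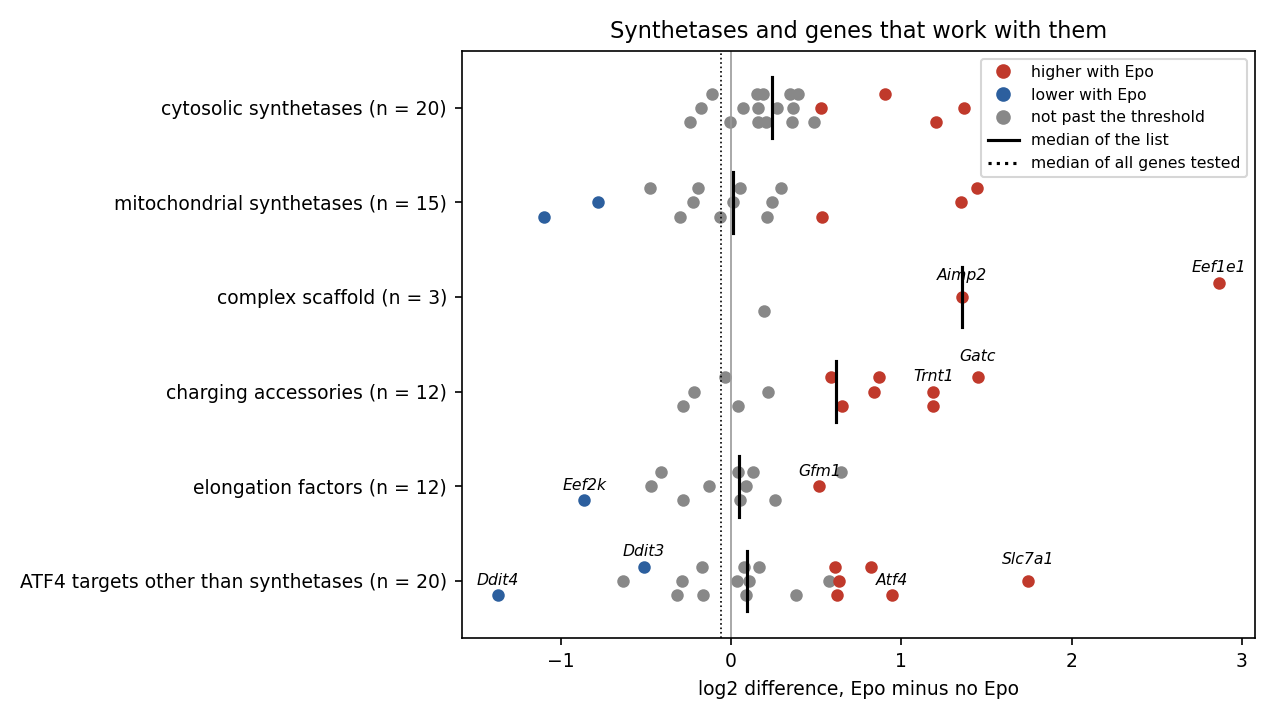
Log2 difference, Epo minus no Epo, of the cytosolic and mitochondrial synthetases and of 4 lists of genes that work with them, 1 point a gene, coloured by whether it passed the threshold. Black bars are list medians, from 0.010 for mitochondrial synthetases to 1.36 for the complex scaffold, and the dotted line is the median of all genes tested.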

How the data were processed

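Total RNA was labelled with Cy3 from a poly(A) primer and hybridised to Agilent arrays, per the labels' protocols. The deposited intensity values were made by Feature Extraction 10.1.1.1, which corrected background and spatial trends, per the file headers. The submitters' processing notes name limma.

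The log2 processed intensity was scaled to the 75th percentile of 59305 non-control spots on each array. Outlier spots removed 9 of 55681 probes, no spot was saturated, and 23735 probes were kept. Each gene, by its name in the file, is its kept probe with the highest mean. Groups were compared with lmFit and eBayes of limma 3.58.1 under R 4.3.3 (two-sided, 2 residual and 4.57 total degrees of freedom, median SE 0.15). Only 4 arrays limit the precision, and the steps were tested on simulated data.

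Replicate numbers were read as the 2 experiments of the design text. Same-numbered arrays deviated together, with a correlation of 0.39 across all genes and 0.75 across the synthetases. In the block fit, however, 0 genes differed by replicate number past the threshold, and the labels do not state the pairing outright. All 4 arrays, on 1 slide, entered the comparison. Members, lists and rules were chosen with earlier results of these data known. All synthetases are named, with values per array for called ones, and context genes are up to 2 rises and 2 falls a list, besides Atf4, Myc and Epor. Other synthetases with values per array were chosen after their values were seen, and marker genes come from lists, of which some members are not reported here. Alternatives varied the block, scaling, background, filter, probe rule, gene names and arrays.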

Additional observations from a re-analysis of the deposited data

How the results depend on the processing

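The 5 largest rises (Mars2, Rars, Yars2, Tars and Farsb) kept their direction in all 14 alternatives, and their calls, except under the filter below and, for Farsb, without Epo replicate 2. Without a filter on dim probes 36408 genes were tested and limma called 0, with 7157 at an unadjusted p under 0.05, so 0 synthetases, 0 scaffold genes, 0 accessories, 0 elongation factors and 0 ATF4 targets passed, and the mitochondrial median was 0.032. Without scaling, 8244 genes were higher and 365 lower, as were 17 cytosolic genes (median 0.98) and 8 mitochondrial genes (median 0.76, 0 lower), 7 elongation factors (0 lower) and 13 ATF4 targets (0 lower). There Dars, Qars, Sars, Vars, Fars2, Pars2, Sars2, Tars2, Vars2 and Ddit3 turned from below to above 0, at 0.57, 0.64, 0.50, 0.74, 0.45, 0.52, 0.27, 0.68, 0.55 and 0.23. With the replicate block 3499 genes were higher and 4072 lower, with 8 cytosolic genes and 2 elongation factors higher and 2 elongation factors lower. The block ended no synthetase call, and 4722 genes passed in both fits. With the percentile over detected probes the cytosolic median was 0.11 and the mitochondrial -0.12, Aars, Cars2 and Hars2 lay at -0.055, -0.071 and -0.12, and 0 elongation factors rose and 2 fell. Quantile normalization gave a mitochondrial median of -0.075, 0 rising elongation factors, and -0.043, -0.027 and -0.090 for Aars, Cars2 and Hars2. The normexp background gave a mitochondrial median of 0.12, 3 elongation factors higher and 2 lower, and 0.023, 0.11 and 0.36 for Qars, Vars and Tars2. Averaging probes gave a mitochondrial median of 0.043 and 0.075 for Tars2, and requiring signal on all arrays gave 2 elongation factors lower. Leaving out scaling and changing the percentile move every gene by 1 amount (median of all genes 0.68 and -0.19, against -0.062 as reported); the cause of the other shifts was not tested.

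With 1 array left out, 1102 to 2019 genes were higher and 1178 to 1945 lower, as were 2 to 3 cytosolic genes (higher), 2 mitochondrial genes (higher) and 1 to 2 (lower). The mitochondrial median ran from -0.033 to 0.066, rising accessories from 3 to 5, elongation factors from 0 to 1 in each direction, and ATF4 targets from 1 to 3 higher and 1 to 2 lower. Those fits ran from -0.59 to 0.23 for Dars, -0.27 to 0.045 for Qars, -0.30 to 0.28 for Vars, -0.063 to 0.17 for Cars2, -0.033 to 0.053 for Hars2, -0.48 to 0.34 for Tars2 and -0.56 to 0.18 for Vars2. Where an arm held 1 array, it was assumed to vary like the other group. A change under 0.43 did not pass for any gene in the fit as reported.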
